A study of Mus musculus with 42 samples.

Results

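Polyamine metabolism was followed through 9 genes, chosen by name from the count and RPKM tables of a mouse kidney obstruction study that list 40701 gene symbols: Aoc1, Odc1, Sat1, Srm, Sms, Amd1, Azin1, Oaz1 and Paox. All 9 were present in the tables and all 9 passed the filter on low counts in both fractions. Ligation of one ureter blocks urine flow and leads to tubular injury and fibrosis in the kidney above it. The 42 libraries came from renal cortex of 12-week-old male and female mice, taken on day 5 or day 10 of obstruction, and the contralateral kidneys, whose day the labels do not give, were the controls. RNA that bound to beads coated with anti-GFP antibody is called PT below (proximal tubule), and the other fraction carries the label Total kidney. The capture is known as translating ribosome affinity purification. The labels give neither the transgene nor the promoter that drives it, nor whether Total is the unbound part of the same lysate. There were 12 groups, with 4 libraries in each male and 3 in each female group. Nothing in the labels says that libraries came from separate animals, so the tests measure the spread between these libraries.

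Polyamines are small cations (putrescine, spermidine and spermine) that bind nucleic acids and are needed for growth and for translation. Ornithine decarboxylase, encoded by Odc1, makes putrescine from ornithine. S-adenosylmethionine decarboxylase (Amd1) provides the aminopropyl groups that spermidine synthase (Srm) and spermine synthase (Sms) add. Antizyme (Oaz1) binds ornithine decarboxylase and sends it to the proteasome, and the antizyme inhibitor Azin1 takes antizyme away from it. On the breakdown side Sat1 acetylates spermidine and spermine, Paox oxidises the acetylated forms back towards putrescine, and diamine oxidase (Aoc1) oxidises putrescine and histamine. Odc1 of the mouse kidney is a classical target of androgens.

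Libraries held 9.31 M to 43.6 M counts, and no pair of libraries was identical. The labels could be checked against known genes. On day 5 Vcam1 and Havcr1, 2 markers of the injured tubule, had risen in PT by 7.69 ± 0.24 (SE) and 7.29 ± 0.27 on the log2 scale, and the proximal tubule transporter Slc34a1 and the receptor Lrp2 fell by 2.64 ± 0.24 and 1.95 ± 0.23 (adjusted p at most 4.74e-07, edgeR). In contralateral kidneys the summed level of 10 proximal tubule markers was 7394 to 9319 CPM (counts scaled per library to a common total) in PT and 4179 to 6443 CPM in Total. Markers of other cells were lower in PT than in Total: the median sum of 10 macrophage markers was 12 against 76.4 CPM and that of 6 loop and distal tubule markers 152 against 3823 CPM. On day 5 the median macrophage sum was 126 CPM in PT and 927 CPM in Total, the median sum of 8 fibroblast markers 37.9 and 854 CPM, and that of the proximal tubule markers 1312 and 690 CPM. In bulk RNA fewer cells of a type and less RNA per cell cannot be told apart.

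The set is named for Aoc1 and Odc1, chosen with these libraries in view. Their levels and fold changes are therefore a description without a test. Levels of 1 gene across libraries are given as CPM on library sizes scaled by TMM factors, and levels of different genes are compared only as the deposited RPKM, which are per length. Calls on the other 7 members and on pathway genes required an adjusted p under 0.05 over all genes tested and at least a 2-fold change (edgeR quasi-likelihood test, Benjamini-Hochberg adjustment).

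Aoc1 was nearly silent in contralateral kidneys and was one of the more abundant members in obstructed ones. In PT of contralateral kidneys it stood at 2.10, 3.25, 2.5 and 2.81 CPM in the 4 male and at 2.59, 1.25 and 1.83 CPM in the 3 female libraries. On day 5 the male PT libraries held 189, 304, 344 and 281 CPM and the female ones 276, 311 and 212 CPM. On day 10 the values were 282, 150, 283 and 180 CPM in males and 285, 359 and 360 CPM in females. Every obstructed PT library thus lay far above every contralateral one, whereas the ranges of the 2 days overlapped. The fitted rise in PT was 6.92 ± 0.23 (SE) on the log2 scale on day 5 and 6.89 ± 0.23 on day 10, and between the days the difference was -0.03 ± 0.17.

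In Total, Aoc1 began at the same low level. Contralateral libraries held 1.53, 2.29, 2.24 and 2.75 CPM in males and 2.07, 1.99 and 4.64 CPM in females. On day 5 there were 114, 142, 153 and 142 CPM in males and 124, 121 and 129 CPM in females. On day 10 the libraries held 120, 94.0, 138 and 79.1 CPM in males and 119, 105 and 136 CPM in females. The groups again did not overlap, and the rise was 5.69 ± 0.20 on day 5 and 5.52 ± 0.20 on day 10. PT and Total had like levels in contralateral kidneys (PT minus Total -0.15 ± 0.21). In obstructed kidneys PT was higher by 1.06 ± 0.17 on day 5 and 1.27 ± 0.17 on day 10. On the TMM scale every obstructed PT library exceeded every Total library of the same day. In the deposited RPKM the ranges overlapped, on day 5 at 60.3 to 118 in PT and 44.9 to 62.4 in Total. On day 10 they were 43.1 to 123 and 31.2 to 61.2 RPKM. The rise in PT exceeded that in Total by 1.21 ± 0.27 and 1.42 ± 0.27.

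Odc1 moved the other way. Contralateral PT libraries held 206, 346, 924 and 228 CPM in males and 90.8, 117 and 62.8 CPM in females. On day 5 the level was 105, 48.5, 63.4 and 47.6 CPM in male and 29.5, 26.3 and 38.0 CPM in female PT. On day 10 it was 40.2, 76.7, 51.9 and 93.7 CPM in males and 41.6, 23.9 and 19.1 CPM in females. Within each sex all obstructed libraries lay under all contralateral ones. Over both sexes the ranges in PT overlapped, because obstructed male libraries reached the level of contralateral female ones. The fold change averaged over the sexes was -2.11 ± 0.34 on day 5 and -2.22 ± 0.34 on day 10, and the days differed by -0.11 ± 0.32.

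In Total the groups of Odc1 did not overlap even over both sexes on the TMM scale. In the deposited RPKM the highest day 5 library (32.5) just passed the lowest contralateral one (32.2). Contralateral Total libraries held 433, 504, 984 and 288 CPM in males and 100.1, 109 and 94.9 CPM in females. On day 5 the range over 7 libraries was 23.0 to 61.7 CPM with a median of 30.9, and on day 10 it was 19.2 to 65.7 CPM with a median of 40.5. Odc1 was lower by 2.78 ± 0.25 on day 5 and by 2.65 ± 0.25 on day 10 on the log2 scale. The level in PT differed from that in Total by -0.27 ± 0.29 in contralateral kidneys, 0.37 ± 0.29 on day 5 and 0.18 ± 0.29 on day 10, and the ranges of the fractions overlapped in all 3 states. The first of these was -0.63 without male contralateral PT replicate 3.

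**Figure D1:**
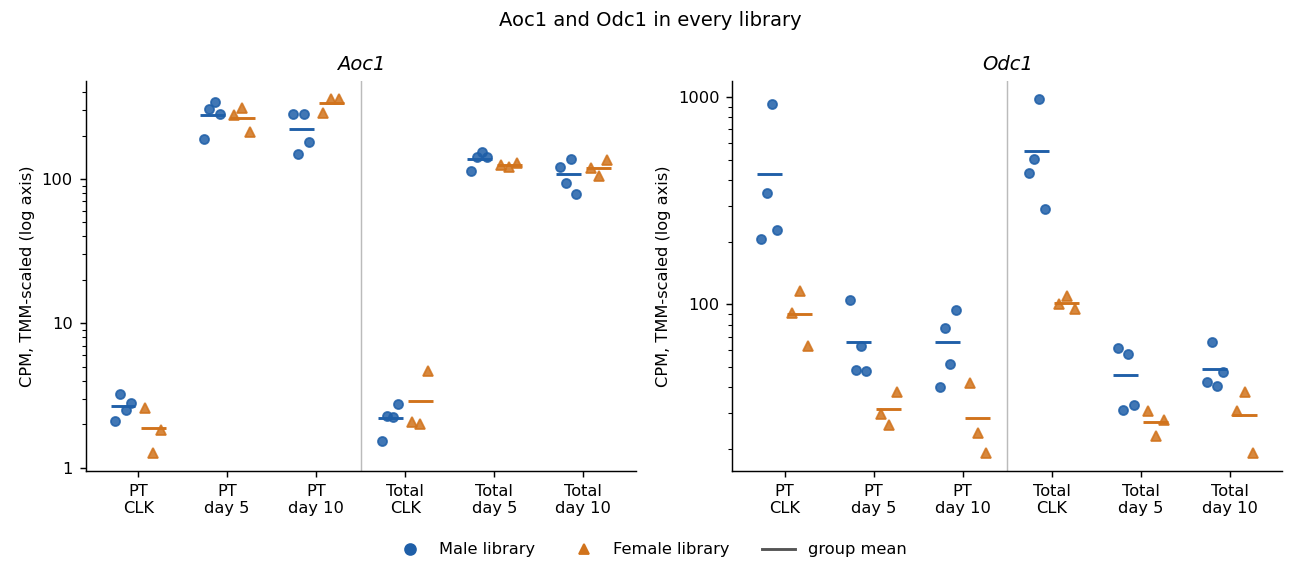
Level of Aoc1 and Odc1 in each of the 42 libraries (CPM, log axis) by state, fraction and sex, where each point is 1 library. Aoc1 lies at 1.25 to 4.64 CPM in contralateral kidneys and at 79.1 to 360 CPM in obstructed ones, and Odc1 is highest in contralateral male kidneys.

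The bases before the start sites of Aoc1 and Odc1 are shown because the pair moved in opposite directions. They are RefSeq windows on GRCm38.p6, plus strand, without the bases that GENCODE annotates as exon. Capitals mark a match to the NF-kB motif in the first window of Aoc1, 114 to 105 bases before the start, and one to the AP-1 motif TGANTCA in the other, 131 to 125 bases before the start. In the Odc1 stretch, which ends 79 bases before its start, none of the motifs searched was found.
Aoc1 first start, chr6:48895005-48895253: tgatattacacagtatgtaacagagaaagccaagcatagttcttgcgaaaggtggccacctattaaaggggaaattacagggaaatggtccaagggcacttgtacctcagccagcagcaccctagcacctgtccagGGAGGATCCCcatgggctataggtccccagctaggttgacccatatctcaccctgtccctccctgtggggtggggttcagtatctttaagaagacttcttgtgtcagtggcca
Aoc1 second start, chr6:48904736-48904985: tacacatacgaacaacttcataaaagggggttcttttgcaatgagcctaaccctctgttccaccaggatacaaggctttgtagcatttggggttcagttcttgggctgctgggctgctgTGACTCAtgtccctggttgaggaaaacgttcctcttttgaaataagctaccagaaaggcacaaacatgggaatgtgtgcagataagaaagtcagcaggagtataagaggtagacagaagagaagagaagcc
Odc1 start, chr12:17544623-17544793: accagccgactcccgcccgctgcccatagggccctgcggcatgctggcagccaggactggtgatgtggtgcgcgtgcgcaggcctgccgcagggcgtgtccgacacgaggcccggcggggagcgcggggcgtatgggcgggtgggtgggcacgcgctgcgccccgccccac

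Start sites were matched for 7 of the 9 members (10 sites), and not for Srm and Azin1. Over the 250 bases before the start the Odc1 window was 80.0% G and C, those of Aoc1 were 51.2% and 45.6%, and the median of all 32851 RefSeq windows was 52.4%. On both strands TGANTCA occurred in 6.75% of all windows and among the members in Aoc1 alone. The NF-kB motif occurred in 7.25% of all windows and in those of Aoc1, Oaz1 and Sms, and the E-box CACGTG in 6.02% and in Sms. TATAAA (12.4% of windows), TGACGT (6.47%) and the androgen response element (0.00913%) matched in no member's window. These are letter matches and not measured sites.

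Odc1 was also the member with the widest gap between the sexes. In contralateral kidneys the 3 female libraries lay under all 4 male ones in both fractions, by 2.26 ± 0.49 on the log2 scale in PT and by 2.45 ± 0.35 in Total. The gap was narrower after obstruction. In PT it was -1.07 ± 0.47 on day 5, when the groups were again apart, and -1.24 ± 0.47 on day 10, when they overlapped. In Total it was -0.74 ± 0.33 and -0.73 ± 0.33, without overlap. In Total Odc1 changed by -3.64 ± 0.33 in males and by -1.93 ± 0.36 in females on day 5, and the change was less negative in females by 1.70 ± 0.46 on day 5 and 1.72 ± 0.46 on day 10. In PT the corresponding differences were 1.19 ± 0.65 and 1.02 ± 0.65.

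The values in PT leaned on 1 library. Male contralateral replicate 3 had the highest Odc1 in both fractions, 924 CPM in PT and 984 CPM in Total. Without its PT library the contralateral sex gap in PT was -1.53, the change in male PT was -1.97 on day 5 and -2.02 on day 10 in place of -2.71 and -2.73, and the sex differences of the change were 0.44 and 0.31. A clock score, the level of the Arntl arm of the circadian clock minus that of the Per arm, moved with the groups too. It ran from -3.98 to -1.78 in the 6 female contralateral libraries, from -2.27 to 0.56 in the 8 male ones and from 0.55 to 1.42 in the 6 female libraries of day 5. With this score as a covariate the contralateral gap in PT was -1.72, the change in female PT on day 5 was -2.33 in place of -1.52, and the sex differences of the change on day 5 were 0.29 in PT and 2.26 in Total. Its part in the result was not otherwise tested.

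Some, but not all, of 5 other genes known to respond to androgens were called on the same side of the gap in contralateral kidneys. Whether androgens had a part in the gap of Odc1 was not tested. In PT, 3 of 5 were called lower in females: Slco1a1, an organic anion transporter, by 7.36 ± 0.54, Kap, the androgen-regulated kidney protein, by 5.85 ± 0.40, and Cyp4a12a, a fatty acid hydroxylase, by 5.78 ± 0.51 (adjusted p at most 1.73e-07). In Total 4 of 5 were lower, Cyp7b1 with them (-4.0 ± 0.64, adjusted p = 9.62e-04, edgeR). Of all tested genes 4.13% were called between the sexes in PT (2.13% lower in females) and 2.76% in Total (1.6% lower in females).

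The level of Aoc1 differed less between the sexes than that of Odc1. Female minus male was -0.52 ± 0.29, -0.07 ± 0.24 and 0.57 ± 0.24 in PT of contralateral, day 5 and day 10 kidneys. On day 10 all 3 female PT libraries (285 to 360 CPM) lay just over the 4 male ones (150 to 283 CPM), and the other groups overlapped. In the deposited RPKM the day 10 PT ranges overlapped too, at 85.2 to 123 in females and 43.1 to 95.5 in males. The rise of Aoc1 in PT was 6.70 in males and 7.15 in females on day 5, and 6.35 and 7.44 on day 10. In Total the differences were 0.33 ± 0.28, -0.13 ± 0.22 and 0.17 ± 0.22, and the first was -0.12 without female contralateral replicate 3. None of the other 7 members was called between the sexes in any state or fraction, by edgeR, by DESeq2 or by limma on RPKM. At an unadjusted p under 0.05 stood 1 of them in PT on day 10 (Sat1, -0.79 ± 0.25, adjusted p = 0.103, edgeR, and called at -1.06 without female replicate 2) and 1 in Total on day 5 and on day 10 (Azin1). The shares of all genes called between the sexes on day 5 and day 10 were 0.851% and 2.22% in PT, and 0.429% and 1.13% in Total. Nor was the change of any of the 7 called as different between the sexes by these tools, none reached an unadjusted p under 0.05 there, and 0.185% to 0.59% of all genes were called.

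Among the synthases, spermine synthase fell. Contralateral PT libraries held Sms at 28.1, 37.2, 23.5 and 32.1 CPM in males and 42.2, 27.2 and 45.2 CPM in females. On day 5 they held 14.7, 10.1, 15.3 and 11.4 CPM in males and 13.3, 12.7 and 9.46 CPM in females. On day 10 the range was 6.11 to 13.8 CPM with a median of 11.4. No obstructed library reached the contralateral range. Sms fell by 1.47 ± 0.19 on day 5 and by 1.73 ± 0.19 on day 10 in PT (adjusted p = 1.17e-06 and 1.23e-07, edgeR). In Total, where it went from 16.8 to 22.8 CPM in contralateral kidneys to 6.29 to 12.9 CPM on day 5, it fell by 1.24 ± 0.17 and 1.26 ± 0.17 (adjusted p = 1.87e-06 and 1.39e-06).

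The other 2 synthesis enzymes did not pass in any comparison with contralateral kidneys. Srm stood at a median of 11.9, 14.6 and 13.4 CPM in PT of contralateral, day 5 and day 10 kidneys, and its fold change was 0.29 ± 0.17 on day 5 (adjusted p = 0.143, edgeR). Amd1 stood at medians of 7.03, 11.1 and 10.8 CPM in PT, with a fold change of 0.61 ± 0.22 on day 5 (adjusted p = 0.0225) that was under 2-fold. In Total the changes of Srm and Amd1 on day 5 were -0.01 ± 0.18 and -0.02 ± 0.20 (adjusted p = 0.952 and 0.928), which does not show that they were unaltered.

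Paox, the oxidase of acetylated polyamines, rose in Total from a very low level. Contralateral Total libraries held 1.28, 0.24, 0.25 and 0.54 CPM in males and 1.29, 1.37 and 0.11 CPM in females, from 1 to 25 counts. On day 5 they held 1.95, 2.79, 2.61 and 3.25 CPM in males and 3.00, 2.59 and 4.4 CPM in females. The groups were apart on day 5, and on day 10, at 1.08 to 2.92 CPM, the lowest library lay within the contralateral range. Paox rose by 1.94 ± 0.37 and 1.44 ± 0.37 (adjusted p = 8.16e-05 and 0.0017, edgeR). With the clock score as a covariate the changes were 1.35 and 0.97 and the calls were lost (adjusted p = 0.0577 and 0.114). In PT Paox went from a median of 1.46 to 2.94 CPM on day 5, a change of 0.91 ± 0.25 under 2-fold (adjusted p = 0.00385), which reached 2-fold without female contralateral PT replicate 1 or 2 or female day 5 PT replicate 2. In GENCODE Paox shares 142 of 4907 exonic bases (2.89%) with Echs1 on the other strand, a mitochondrial enzyme at 188 to 722 CPM by group median. The deposited counts and RPKM give Paox a length of 1766 bases, so the shared part of the counted exons is not known. The strand setting of the counting is not given either, so the values of Paox are uncertain.

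Sat1 was the most abundant member in PT and did not pass. Its PT range was 364 to 751 CPM in contralateral, 432 to 663 on day 5 and 341 to 958 on day 10, and the changes were 0.08 ± 0.17 and 0.11 ± 0.17 (adjusted p = 0.73 and 0.605, edgeR). In Total they were 0.17 ± 0.18 and 0.28 ± 0.18. Sat1 was higher in PT than in Total by 0.98 ± 0.18 in contralateral kidneys, just short of 2-fold (adjusted p = 1.72e-05). It passed 2-fold on leaving out any one of 6 libraries (male Total replicate 2 or 3, male PT replicate 1 or 4, female Total replicate 2 or female PT replicate 1), at 1.01 to 1.06. It also passed with RLE factors (1.03), with no filter on low counts (1.10), with only the groups compared (1.02) and with DESeq2 (1.03).

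Neither of the 2 regulators of ornithine decarboxylase, the antizyme gene Oaz1 and the antizyme inhibitor gene Azin1, was called in obstructed PT, and over both sexes their ranges overlapped with those of contralateral PT. Oaz1 went from a median of 254.5 to 130 CPM in PT on day 5 (-0.74 ± 0.24, adjusted p = 0.015, edgeR) and to 169 CPM on day 10 (-0.51 ± 0.24, adjusted p = 0.0792). Azin1 went from a range of 171 to 340 CPM to 210 to 409 CPM on day 5 (0.50 ± 0.25, adjusted p = 0.0939) and 201 to 762 CPM on day 10 (0.65 ± 0.25, adjusted p = 0.0294). The 762 CPM belong to female replicate 2, and the next library was at 467 CPM. With the clock score as a covariate Oaz1 on day 5 was -1.46, Azin1 was 1.08 and 1.01, and these 3 changes were called. The processed copy Oaz1-ps held 6.73% to 11.4% of the counts of the pair, and an antisense gene overlaps 5.72% of the exonic bases of Azin1, so both counts are uncertain to that extent.

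In Total Oaz1 changed by -0.61 on day 5 and -0.43 on day 10, under 2-fold (adjusted p = 0.00482 and 0.0366, edgeR). The change of Azin1 in Total was -0.22 ± 0.17 on day 5 and -0.37 ± 0.17 on day 10. Azin1 was therefore called higher in PT than in Total in obstructed kidneys (1.06 ± 0.23, adjusted p = 1.69e-04, and 1.42 ± 0.23, adjusted p = 1.95e-06, edgeR), but not in contralateral ones (0.36 ± 0.23). The difference between the fractions in its change was 0.70 ± 0.32 on day 5 (adjusted p = 0.283) and 1.06 ± 0.32 on day 10 (adjusted p = 0.0289). The day 10 call did not hold widely: it was lost under 7 other settings and the pairing of fractions within a state (0.97), and on leaving out any one of 7 libraries, where the value fell furthest, to 0.75, without female day 10 PT replicate 2.

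**Figure D2:**
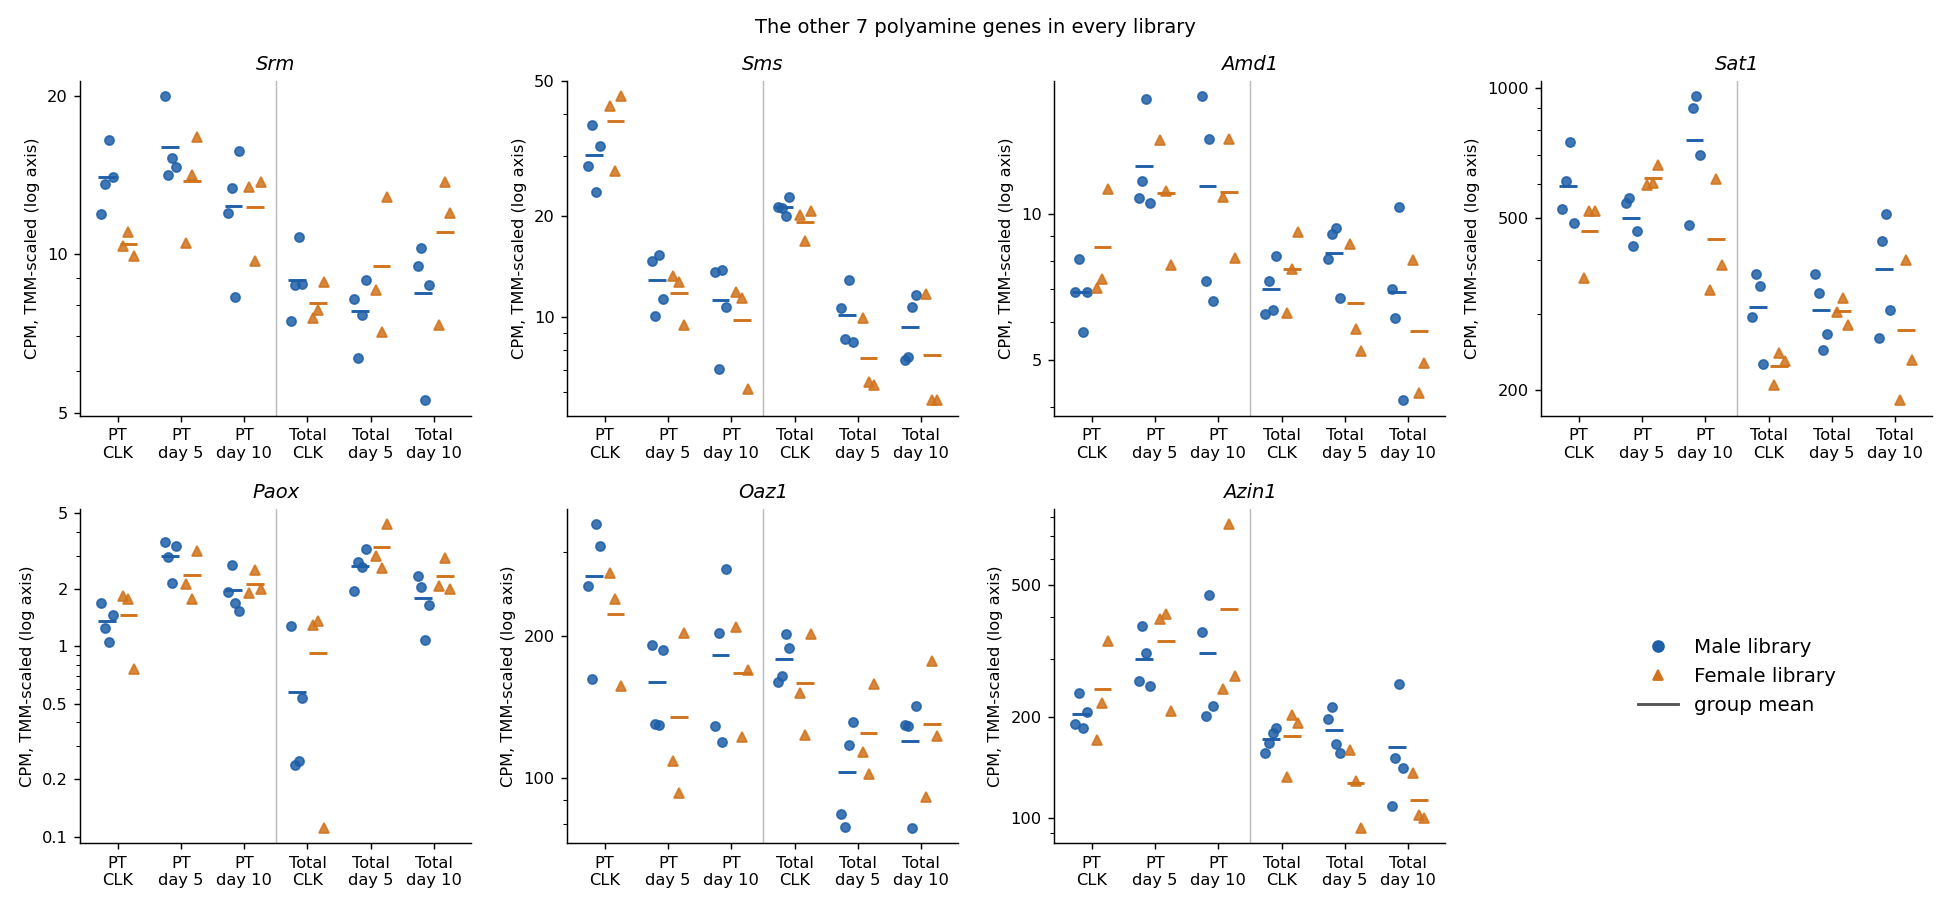
Level of the other 7 members in each library (CPM, log axis) by state and fraction, with 1 point per library. On this scale Sms is the only one of them whose obstructed libraries lie apart from the contralateral ones in both fractions on both days. In RPKM its day 5 PT libraries overlap with the contralateral ones. The share of all genes that lie apart was not counted.

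Counted together, 1 of these 7 members was called in PT on day 5 and 1 on day 10, each time Sms, when 30.6% and 31.7% of all tested genes were called. In Total 2 of 7 were called on each day, Sms lower and Paox higher, against 32.5% and 34.6% of all genes. The members' share is thus no higher than that of all genes. Their median change on day 5 was 0.29 in PT and -0.02 in Total, and that of all genes 0.05 and 0.04. Between day 10 and day 5 none of the 7 was called in either fraction by edgeR, DESeq2 or limma on RPKM, and none had an unadjusted p under 0.05, with 0.442% of all genes called in PT and 0.393% in Total. Between PT and Total 0 of 7 were called in contralateral kidneys by edgeR (5 at an unadjusted p under 0.05, 1 called by DESeq2 and none by limma), and Azin1 on day 5 and on day 10. The contralateral count rose without the libraries named above for Sat1, and Paox was called without male Total replicate 1 (1.28), female Total replicate 1 (1.05) or 2 (1.07) or female PT replicate 3 (1.07). Sat1 was also called on day 5 without male Total replicate 1 or 2, male PT replicate 3, female Total replicate 2 or female PT replicate 1, and on day 10 without female Total replicate 2 (1.11). Srm was called on day 5 without female Total replicate 3 (1.05), and Amd1 on day 10 without female Total replicate 1 (1.05). The shares of all genes were 24.1%, 27.8% and 30.1%. The change differed between the fractions for 0 of 7 on day 5 (2 at an unadjusted p under 0.05, none by DESeq2 or limma; Paox was called without male contralateral Total replicate 1, at -1.43) and for Azin1 on day 10, with 4.27% and 5.76% of all genes called. With PT and Total libraries of the same state and number as a replicate block, an alternative chosen after seeing the data, Paox was called higher in contralateral PT than in Total (1.07) and its change lower in PT (-1.23 on day 5 and -1.05 on day 10).

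**Figure D3:**
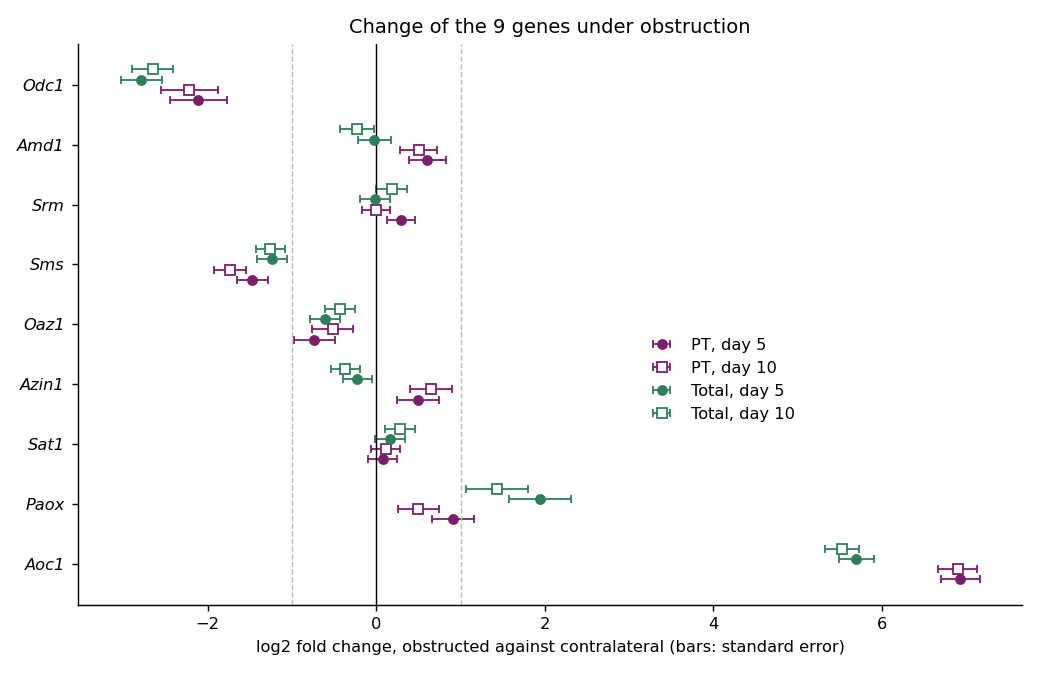
Log2 fold change of the 9 members on day 5 and day 10 against contralateral kidneys in PT and Total, points with standard errors. Aoc1 stands at 5.52 to 6.92 and Odc1 at -2.78 to -2.11, and the other 7 members lie between -1.73 and 1.94.

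The order of the members by RPKM differed between the states, among others for Aoc1 and Odc1. In contralateral PT Sat1 led with 143 ± 27.3 RPKM (SD, n = 7), followed by Odc1 with 78.4 ± 74.7 and Oaz1 with 71.0 ± 16.3, whose ranges overlapped, and then by Azin1 with 26.5 ± 7.48. The place of Odc1 came from the males, whose mean was 117 RPKM. In females Odc1 (26.6) stood below Oaz1 (65.5) and Azin1 (29.5 RPKM). Srm (5.75), Sms (4.19) and Amd1 (1.77 RPKM) came next, and Paox (0.595) and Aoc1 (0.555 RPKM) were last with overlapping ranges. On day 5 Sat1 (204 ± 27.1) stood apart from Aoc1 (90.6 ± 22.2), which now overlapped with Oaz1 (59.0 ± 14.4) and was followed by Azin1 (52.7 ± 15.8) and Odc1 (20.6 ± 10.8). Aoc1 by its mean moved to the second place of 9 in each sex, from the last in females and from just above Paox in males. In contralateral Total Odc1 (125 ± 104) and Sat1 (90.7 ± 19.4) led with overlapping ranges, but Odc1 led in males (189 RPKM) and not in females, where it stood at 38.1 RPKM, below Sat1 (78.2) and Oaz1 (58.3). On day 5 the order in Total was Sat1 (137), Oaz1 (53.4), Aoc1 (52.1), Azin1 (32.1) and Odc1 (18.5 RPKM).

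Ratios of RPKM within a library, which need no scaling between libraries, put the decarboxylase beside its regulators. The log2 ratio of Odc1 to Azin1 in Total was 2.83 ± 0.74 (SD, n = 4) in contralateral males and -0.77 ± 0.58 on day 5. In females it was 0.52 ± 0.33 (SD, n = 3) and -0.91 ± 0.40. In female PT it went from -0.13 ± 0.88 to -2.10 ± 0.81. The log2 ratio of Odc1 to the antizyme gene Oaz1 went from 1.5 ± 0.69 to -1.20 ± 0.65 in male Total and from 0.45 ± 0.95 to -1.32 ± 0.49 in male PT. In females it lay below 0 already in contralateral kidneys. It went from -0.61 ± 0.46 to -2.18 ± 0.31 in female Total and from -1.30 ± 0.27 to -2.03 ± 0.33 in female PT. The ratio of Sat1, on the breakdown side, to Odc1 went from -0.82 ± 0.54 to 2.67 ± 0.57 in male Total and from 2.28 ± 0.57 to 4.20 ± 0.20 in female PT. In every sex and fraction the lowest Sat1 to Odc1 ratio on day 5 exceeded the highest contralateral one.

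**Figure D4:**
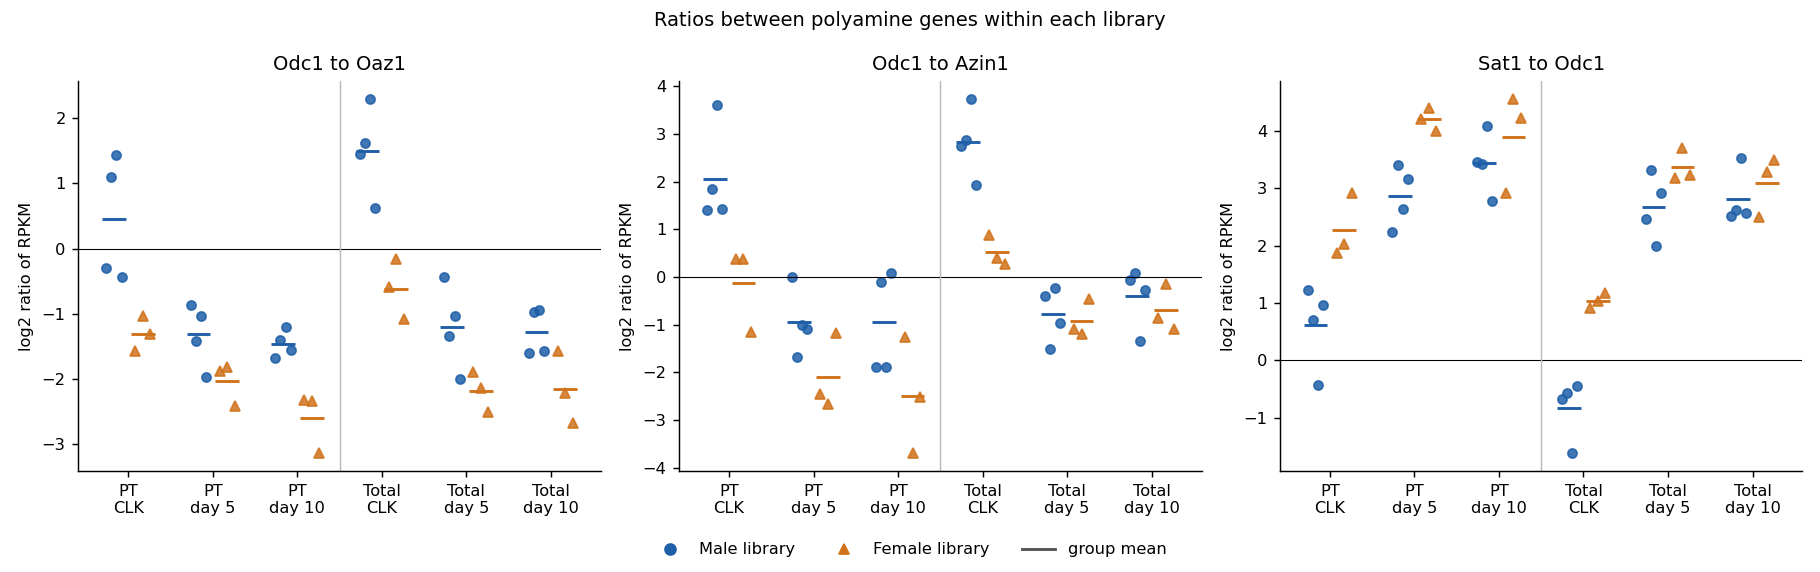
Log2 ratios of RPKM within each library, Odc1 to Oaz1, Odc1 to Azin1 and Sat1 to Odc1, by group, with 1 point per library. In male Total the mean Sat1 to Odc1 ratio goes from -0.82 to 2.67 on day 5.

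Around the members, 38 further genes of polyamine metabolism were followed, of which 32 were tested in PT and 35 in Total. By day 5, 7 of 32 rose and 8 fell in PT (46.9% of them), when 18.2% of all genes rose and 12.4% fell. In Total 9 of 35 rose and 8 fell (48.6%), against 19.2% and 13.3% of all genes. By day 10 the counts were 6 higher and 10 lower in PT (19.7% and 12% of all genes), and 6 higher and 8 lower in Total (20.9% and 13.8%). The median change of the list on day 5 was -0.26 in PT and -0.16 in Total.

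Of the 4 tested genes of ornithine and agmatine supply in PT, 2 rose and 1 fell on day 5 (18.2% and 12.4% of all genes). Arg2, the mitochondrial arginase that makes ornithine, rose in PT from a median of 0.74 CPM (0.54 to 1.91) to 31.8 CPM (24.1 to 74.2) on day 5, a change of 5.44 ± 0.24, and of 5.39 ± 0.24 on day 10 (adjusted p at most 3.66e-13, edgeR). In Total it rose by 3.11 ± 0.31. Slc7a1, a transporter of arginine and ornithine, rose in PT by 3.49 ± 0.35 from 0.44 to 3.87 CPM. Agmat, which makes putrescine from agmatine, fell by 1.20 ± 0.37 in PT and by 2.07 ± 0.38 in Total. Azin2, the second antizyme inhibitor, rose by 1.65 ± 0.30 in PT. Oat, which takes ornithine towards glutamate, stood at -0.78 ± 0.15 in PT (adjusted p = 1.41e-04), short of 2-fold.

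Of the 5 tested genes of further oxidation and acetylation in PT, 1 rose and 3 fell on day 5, when 18.2% and 12.4% of all genes did. Smox, the oxidase of spermine, rose from a median of 7.79 CPM (3.67 to 10.0) to 50.8 CPM (35.2 to 73.6), by 2.82 ± 0.25 in PT and by 2.56 ± 0.18 in Total. Aldh9a1, an aldehyde dehydrogenase of the route from putrescine to GABA, fell by 2.08 ± 0.17 in PT, and the GABA transaminase Abat fell by 2.63 ± 0.21, from 531 to 92.9 CPM by median. Sat2, a relative of Sat1, fell by 1.08 ± 0.21. All these changes had adjusted p at most 2.46e-04 (edgeR). They went with a lower sum of proximal tubule markers, whose 10 genes all fell in both fractions on day 5. The part of that in the result was not tested.

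Among carriers the organic cation transporters Slc22a2 and Slc47a1 fell in PT by 1.38 ± 0.14 and 1.41 ± 0.15 on day 5. Slc12a8 had 1 count over the 7 contralateral PT libraries and 59 counts on day 5, a ratio of 52.6 (95% counting interval 9.08 to 2113). Of the methionine salvage genes Mri1 rose by 2.03 ± 0.32 and Adi1 fell by 1.57 ± 0.27 in PT. Of the 4 hypusine genes Eif5a2, the second form of the factor that carries the spermidine-derived residue hypusine, rose by 2.46 ± 0.35 (adjusted p = 5.63e-06, edgeR). Eif5a, Dhps and Dohh were not called, when 18.2% of all genes rose in PT on day 5.

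Some carriers and enzymes changed unequally in the fractions, with 6 of 35 called on day 5 and also on day 10 (4.27% and 5.76% of all genes). Slc7a2, a further arginine carrier, rose in Total from a median of 2.14 to 13.6 CPM (2.84 ± 0.35) but stood at 1.80 and 1.36 CPM in PT (-0.41 ± 0.48, adjusted p = 0.488, edgeR), and the difference of the changes was -3.27 ± 0.61 (adjusted p = 4.01e-04). Arg2 (2.30 ± 0.38), Slc7a1 (1.69 ± 0.38), Eif5a2 (1.43 ± 0.44) and Maob (1.93 ± 0.39) had a more positive change in PT. These are differences of the change and not of the level. Maob, a monoamine oxidase, fell by 1.05 ± 0.20 in Total and stood at 0.91 ± 0.35 in PT, short of 2-fold. In contralateral kidneys 8 of 35 were called lower in PT and none higher (22.9% and 1.16% of all genes), among them Aoc3 (-5.09 ± 0.73), Arg2 (-3.62 ± 0.30), Slc7a1 (-3.01 ± 0.30) and Maob (-2.70 ± 0.29). In Total on day 5 Arg1, at 45 counts against 10, and Aoc3 rose by 1.84 ± 0.67 and 1.44 ± 0.39. Macrophage and fibroblast markers rose in Total with them, 10 of 10 and 8 of 8, when 19.2% of all genes rose. These markers rose in PT too, 9 of 10 and 7 of 7 tested, against 18.2% of all genes. The part of these markers in the result was not tested.

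**Figure D5:**
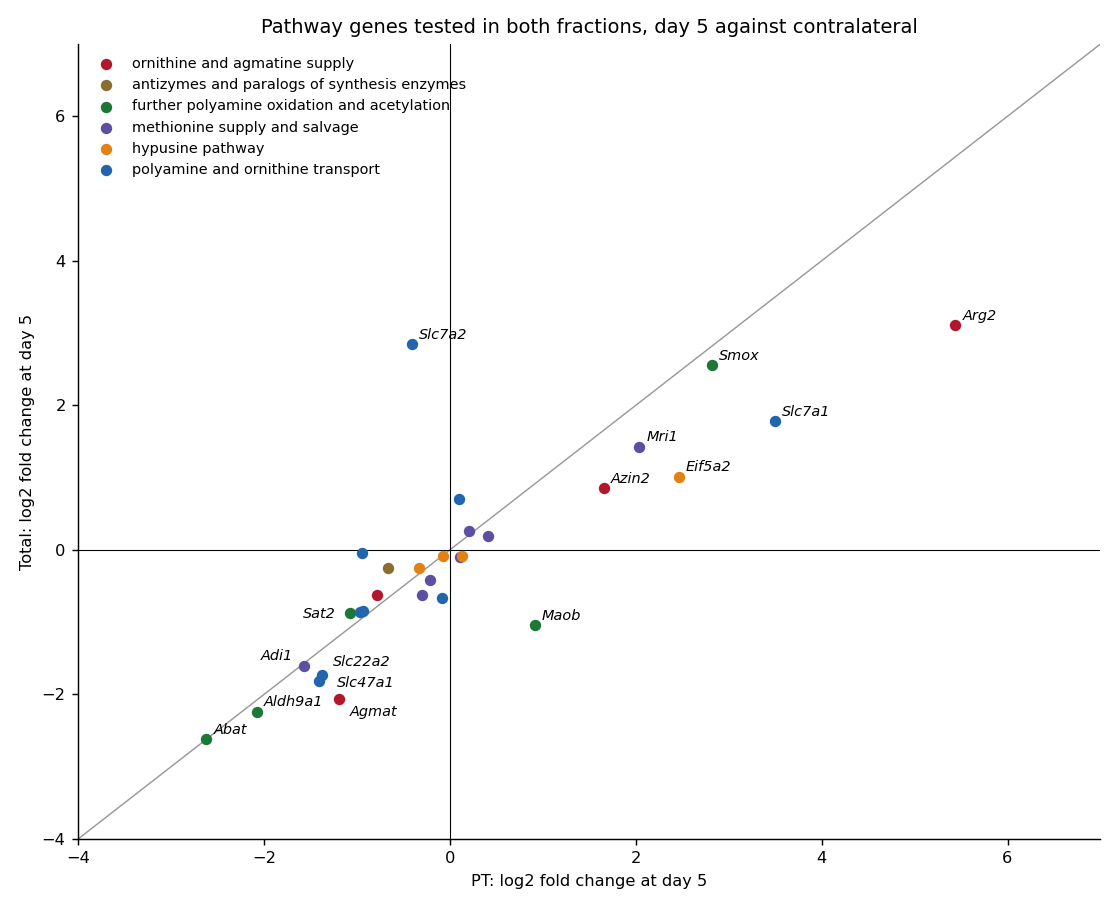
Log2 fold change on day 5 of 30 pathway genes tested in both fractions, PT on the x axis and Total on the y axis, coloured by list, with the line of equal change. Arg2 lies at 5.44 and 3.11, Slc7a2 at -0.41 and 2.84, and Slc12a8, with 1 contralateral count, is left out.

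Between the sexes 1 of 32 pathway genes was called in contralateral PT (4.13% of all genes), 1 on day 5 (0.851%) and 2 on day 10 (2.22%). In Total 2 of 35 were called in contralateral kidneys (2.76% of all genes), none on day 5 (0.429%) and 3 on day 10 (1.13%). Oat was higher in females in contralateral kidneys by 1.77 ± 0.21 in PT and 1.37 ± 0.16 in Total (adjusted p = 8.61e-06 and 3.83e-06, edgeR), and in PT also on day 5 (1.34 ± 0.21) and day 10 (1.30 ± 0.21). Arg2 was higher in contralateral female Total by 1.78 ± 0.41 (adjusted p = 0.0147). On day 10 Slc22a2 was lower in females by 1.22 ± 0.20 in PT and 1.57 ± 0.22 in Total, where Slc47a1 (-1.16 ± 0.25) and Aldh9a1 (-1.08 ± 0.20) were lower too. The counts rest on few libraries. The 2 called in contralateral Total were 1 without male replicate 3 or without female replicate 2, the 3 called in Total on day 10 were 1 without male replicate 4 or female replicate 3, and the 1 in contralateral PT was 2 without male replicate 3. No pathway gene was called for a sex difference of the change by edgeR or DESeq2, with 1 and 3 of 32 at an unadjusted p under 0.05 in PT on the 2 days and 5 and 6 of 35 in Total. In Total on day 5 none was called between the sexes by edgeR, with 11 at an unadjusted p under 0.05 and 1 called by DESeq2.

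Odc1 is a known target of Myc, and 2 of the 5 Myc network genes followed rose on day 5 in both fractions, when Odc1 was lower and 18.2% of all genes rose in PT and 19.2% in Total. Myc rose in PT by 3.85 ± 0.44 from a median of 3.94 to 60.2 CPM, and in Total by 3.36 ± 0.32. Mycl rose by 4.78 ± 0.34 in PT and by 2.77 ± 0.26 in Total (adjusted p at most 5.77e-07, edgeR). Mycn (1.20 ± 0.64 in PT and 0.31 ± 0.25 in Total), Max (-0.19 ± 0.19 and -0.01 ± 0.19) and Mxd1 (-0.27 ± 0.24 and -0.01 ± 0.18) were not called.

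By likeness over the 42 libraries (Pearson correlation of log2 CPM, among 12090 genes), the genes closest to Aoc1 were Vcam1 (0.992), C3 (0.990), Serpina10 (0.975), Havcr1 (0.975) and Stx11 (0.974). Those closest to Odc1 were Airn (0.928), Pi4ka (0.918), Mtor (0.913), Rnf11 (0.910) and Nudt19 (0.908). Among the members the correlation was -0.78 for Aoc1 and Odc1, 0.68 for Odc1 and Sms, and 0.84 for Amd1 and Azin1. All these values share the libraries and the contrast of obstructed with contralateral kidneys and are a description.

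The scaling of the libraries sets the level of all these changes. TMM factors left the median change of all tested genes at 0.05 in PT and 0.04 in Total on day 5, and scaling by library size alone put it at 0.52 and 0.48. Of the called genes 59.6% were higher in PT on day 5 with TMM and 83.2% by library size, and in Total 59.1% and 80.4%. By library size Aoc1 stood at 7.40 in PT and Sms at -1.0, short of the call, while Amd1 (1.09) and Paox (1.36) were called in PT. The listed genes called in PT on day 5, 7 members and pathway together, went from 7 higher and 9 lower to 10 higher and 4 lower. Of the members' directions named above as called, none turned.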

How the data were processed

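RNA of 42 libraries from mouse renal cortex was sequenced. Per the submitters' processing notes the tools were STAR 2.0.4b, Subread and featureCounts 1.4.5. The genome build, annotation, strand setting and normalization steps are not given in the sources used here. The authors deposited raw counts per gene symbol and RPKM. Samples were grouped by their labels, and every column was matched to 1 sample. The members, lists, named genes (the 9 members and, per comparison, the called pathway genes with the largest changes and those of the list described) and tests were chosen with earlier results of these data known.

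The quasi-likelihood tests used edgeR 4.0.16 in R 4.3.3 (filterByExpr, TMM factors, robust quasi-likelihood fit, 1 mean per group, sexes weighted equally, prior count 2). They were also run on simulated data with few changed genes, as many up as down. Such data cannot check the scaling under a change as broad as that of obstruction. PT, Total and, across fractions, all libraries were fitted over 29 comparisons. Alternatives were DESeq2 1.42.0, limma 3.58.1 on log2(RPKM + 1), other scalings and filters, covariates, a replicate block and leaving out each library. Same-numbered libraries deviated together in part of the comparisons. The correlation was over 0.1 for every number between PT and Total of contralateral (0.41 to 0.79) and day 10 kidneys (0.11 to 0.91). The same held between contralateral and day 10 Total (0.17 to 0.59). Between PT and Total of day 5 it held for 5 of 7 numbers (-0.42 to 0.90), and elsewhere for at most 4 of 7. RefSeq promoter sequences were matched by symbol. Of the carriers, 1 gene stays in the counts of the lists and is not reported here.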

Additional observations from a re-analysis of the deposited data

Results flagged for a closer look

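In PT of male day 5 kidneys Amd1 was at 17.2 CPM in 1 library and at 10.5, 10.7 and 11.6 CPM in the other 3, so that the gap exceeded the limit for 4 values. It was the 1 such case among 54 combinations of a member and a male group of 4 libraries. Chance gives about 1 in 20 of such combinations, so 1 of 54 is not above that share.

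The change with obstruction differed between PT and Total for 1 member and 6 pathway genes by the test of the difference itself (edgeR, values as PT minus Total on the log2 scale). For Azin1 it was 1.06 on day 10. For Arg2 it was 2.30 on day 5 and 2.23 on day 10, for Slc7a1 1.69 and 1.67, for Eif5a2 1.43 and 1.38, and for Maob 1.93 and 1.36. For Slc7a2 it was -3.27 and -3.93. The fitted values of Slc12a8, 4.02 and 4.93, rest on 1 count over the 7 contralateral PT libraries and depend on the prior count. Its counted ratios were 52.6 on day 5 and 63.9 on day 10 (interval 11.2 to 2551) in PT, and 2.53 and 2.25 in Total.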

How the results depend on the processing

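No member's called change turned its direction under any alternative. A fold change counted as held if its call kept its direction, or if it stayed uncalled, whatever its sign. Aoc1 and Odc1, without a test, counted as held if they moved by less than the SD of log2 CPM within groups. When a library was left out, 2981 of the members' fold changes held, 24 gained a call, 9 lost one and 10 moved. Under the other settings these numbers were 2714, 50, 33 and 36. Sms lost its calls with limma on log2(RPKM + 1), at -0.74, -0.94, -0.56 and -0.63 (PT and Total, day 5 and day 10), and by library size in PT on day 5 (-1.0) and in Total (-0.78 and -0.88), while leaving out any single library ended neither a call of Sms nor one of Paox against contralateral kidneys averaged over the sexes. Paox in Total on day 10 (0.77) lost its call with limma. Azin1 in PT against Total on day 5 lost it with limma (0.76) and by library size (0.80). The Azin1 difference of day 10 was 0.91 with RLE factors, 1.12 by library size, 0.93 without a filter, 0.87 with Lars2 as a covariate, 1.04 with only the groups compared, 0.91 with DESeq2 and 0.99 with limma, each short of the call. It was also lost without male Total replicate 1 (0.99) or 3 (0.98) or PT replicate 3 (0.97) of day 10, and without female contralateral Total replicate 2 (1.01) or PT replicate 1 (0.96) or 2 (1.03).

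The counts of the 7 members and pathway genes called were 16 and 17 in PT and 19 and 16 in Total (day 5, day 10), 8, 12 and 13 for PT against Total by state, and 6 and 7 for the PT minus Total change. With limma on RPKM, which tests fewer genes and compresses low values, they were 8, 7, 12 and 10, then 2, 2 and 6, then 1 and 1, and 1 and 1 for the sex difference of the Total change on day 5 and day 10 in place of 0. With no minimum fold they were 26 in PT on day 5, 29 and 29 in Total, 27, 28 and 29 for PT against Total, 1 for Total day 10 against day 5 and 2 for the sexes in contralateral PT. DESeq2 gave 1 for PT day 10 against day 5 and 1 for the sexes in Total on day 5, both 0 with edgeR. For the PT minus Total change on day 10 the count was 4 with RLE factors, with no filter and with only the groups compared. A filter of 5 CPM in 3 libraries gave 4 for contralateral PT against Total. With Lars2 as a covariate the sexes gave 2 in contralateral PT and 1 in Total on day 10, with the clock score 1 in contralateral Total, with only the groups compared 1 in contralateral Total and 1 in Total on day 10, and by library size the sex difference of the Total change on day 10 was 1. Leaving out 1 library gave 4 to 8 for the PT minus Total change on day 10 (4 without male Total replicate 3), 1 to 2 for the sexes in contralateral PT and in contralateral Total, and 1 to 3 in Total on day 10. With sex and replicate number as a replicate block the counts were 17 and 18 in PT, 18 and 15 in Total and 7, 12 and 15 for PT against Total, all within 1.5 times. RLE factors moved the median PT minus Total change of all genes on day 10 from 0.17 to 0.03. The cause of these changes was not tested.

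The counts of all genes called moved past 1.5 times too. On day 5 they were 4572 in PT (2113 with limma on RPKM, 7992 with no minimum fold) and 5453 in Total (2650 and 9859), and between contralateral PT and Total 4123 (1081 and 7960). Between day 10 and day 5 they were 66 in PT (23 to 93 with a library left out, 192 with DESeq2) and 66 in Total (17 to 95, and 161). Between the sexes in contralateral kidneys they were 617 in PT and 464 in Total, and 235 and 105 with the clock score. Contralateral Aoc1 rests on 19 to 52 counts per library and Paox in contralateral Total on 1 to 25, which limits their folds.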
